A study of Mus musculus with 12 samples.

Results

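Genes known to be expressed in the epithelium of the epididymis, not all of them only there, were examined in RNA-seq libraries of the mouse testis. The set held 10 of the 20788 genes in the table: Crisp1, Spink8, Rnase9, Rnase10, Prom2, Spint3, Lcn5, Lcn8, Gpx5 and Cst8. They were chosen by name, with their levels in these same 12 libraries already known, and it was the differences of Crisp1, Spink8, Rnase9, Prom2 and Spint3 between libraries that brought them up. Their levels and fold changes are therefore given as a description, with no test. All 10 genes have a row, and 7 passed the filter on low counts. Lcn5, Lcn8 and Gpx5 did not, and their reads are given below.

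The epididymis is the coiled duct that sperm enter after they leave the testis through the rete testis and the efferent ducts. Its epithelium secretes a different set of proteins in each segment, the initial segment, the caput, the corpus and the cauda, and sperm take up several of these proteins as they mature. It lies against the testis in the scrotum and is separated from it by dissection. The labels do not say whether any of it, or of the ducts that lead to it, was taken with these testes, so an epididymal level here is a level in the tissue as collected and is not assigned to testis cells. Several of its secreted proteins belong to gene families that also have members made by germ cells, such as the cysteine-rich secretory proteins, the cystatins and the protease inhibitors of the Kunitz, Kazal and whey acidic protein types.

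The libraries came from testes of F1 mice in 4 groups of 3. Per the study's methods, the fathers' testes had received a lentivirus and the fathers were mated with untreated ICR females, so that the offspring themselves were not injected. The group 3NC descended from males given the LV3 control virus, and the knockdown group from males given LV3 with hairpin RNAs against lncRNA5251, a long noncoding RNA. The group 5NC descended from males given the empty LV5 vector, and the overexpression group from males given LV5 that carried lncRNA5251. All 4 groups therefore share a virus-injected father. The design text of the series states instead that the F1 testes were transfected, and the labels write the strain as IRC. Whether each library stands for its own animal is not in the labels, so the spread within a group, and every p-value, may be technical in part. The level of lncRNA5251 itself was not analysed here.

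Depth ran from 12719699 to 15771655 estimated reads per library, and the 3 shallowest were 5NC replicates 2 and 3 and overexpression replicate 3. Genes of testis germ cells, among them Prm1 and Prm2, summed to 10770 to 14220 CPM (reads scaled to a common library size by TMM) in all 12 libraries. In 3NC replicate 2 and knockdown replicate 1 the leukocyte gene Ptprc stood at 94.8 and 71.7 CPM, against 2.12 to 6.91 CPM in the other 10 libraries.

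The promoters of 3 members are shown as examples: Crisp1 varied widely between libraries, Cst8 was abundant and steady, and Lcn5 was almost without reads. Not every member is like one of these, since Rnase10 was low in 5NC replicate 2 only. Each is the 250 bases before the start site in RefSeq (build GRCm38.p6), 5′ to 3′ on the strand of the gene, and capitals mark TATAAA, the letters of a TATA box, searched on that strand only.
Crisp1, chr17:40319208-40319457, minus strand: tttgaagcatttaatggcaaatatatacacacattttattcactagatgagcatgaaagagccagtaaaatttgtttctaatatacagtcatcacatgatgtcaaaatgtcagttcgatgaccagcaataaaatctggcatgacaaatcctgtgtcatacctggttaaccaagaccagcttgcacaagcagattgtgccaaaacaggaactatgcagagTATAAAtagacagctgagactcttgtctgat
Lcn5, chr2:25657702-25657951, plus strand: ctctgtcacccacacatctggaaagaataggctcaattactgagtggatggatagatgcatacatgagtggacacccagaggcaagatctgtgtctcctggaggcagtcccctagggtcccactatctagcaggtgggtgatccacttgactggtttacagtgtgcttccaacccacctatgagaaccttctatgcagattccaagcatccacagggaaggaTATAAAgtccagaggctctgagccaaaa
Cst8, chr2:148798589-148798838, plus strand: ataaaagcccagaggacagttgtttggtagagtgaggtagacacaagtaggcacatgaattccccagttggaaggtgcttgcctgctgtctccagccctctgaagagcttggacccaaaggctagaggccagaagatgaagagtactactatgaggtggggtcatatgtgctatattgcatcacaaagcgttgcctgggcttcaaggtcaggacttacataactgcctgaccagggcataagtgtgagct
The motif began 31 bases before the start site used for Crisp1 and 28 bases before that used for Lcn5, and the window of Cst8 did not hold it. The start site used for Lcn5 lies inside the span of the gene, which begins at 25657932, so the motif is closer to the start of that span. Of the 9 members with a promoter sequence, 3 held TATAAA, the last being Spint3 at 161 bases, against 7.59% of all 32851 promoters of the same length. AGAACA, one arm of the androgen response element, searched on both strands, was found in Spint3 and Rnase10, against 16.1% of all promoters. Lcn5, with a level near 0, thus carried the same letters at nearly the same distance from the start site used as Crisp1, whose level ranged widely.

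Crisp1 (gene ID 11571, chr17:40293758-40319207) encodes a cysteine-rich secretory protein of the distal caput, corpus and cauda that coats sperm. Its level, in FPKM (the authors' value, scaled for gene length and depth), was 25.1, 51.2 and 19.6 in the 3 libraries of 3NC, in the order of their replicate numbers. It was 7.79, 192 and 78.7 FPKM in 5NC, 10.6, 0.05 and 0.46 FPKM in the knockdown group, and 0.15, 0.10 and 0.06 FPKM in the overexpression group. All 6 control libraries were above all overexpression libraries and above 2 of the 3 knockdown libraries, and knockdown replicate 1 lay between 5NC replicate 1 and the rest of the controls. The estimated reads behind these values were 491, 990 and 389 in 3NC, 158, 3400 and 1375 in 5NC, 209, 1 and 9 in the knockdown group, and 3, 2 and 1 in the overexpression group. The spread within 5NC, at 93.0 ± 93.1 FPKM (SD, n = 3), was as large as its mean.

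**Figure D1:**
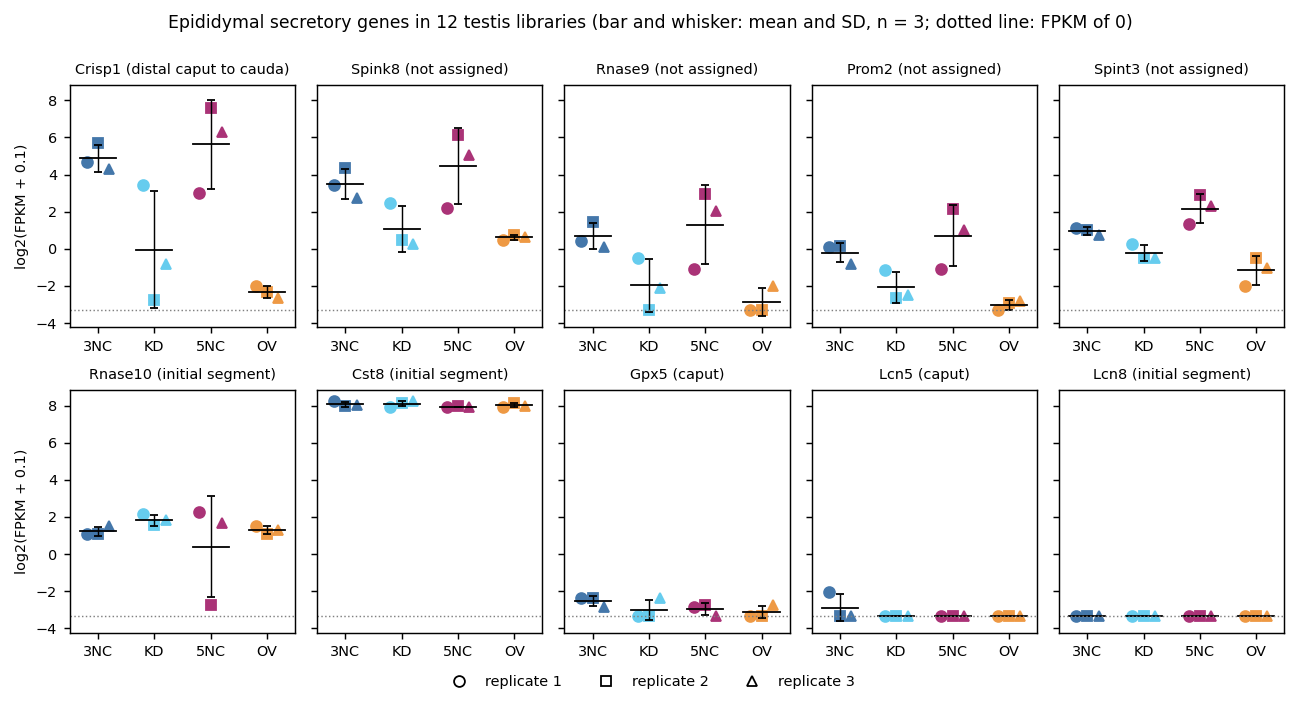
FPKM of the 10 epididymal genes in each library, as log2(FPKM + 0.1), by group (3NC, knockdown KD, 5NC, overexpression OV), with the assigned segment in parentheses. Points are libraries, and bars with whiskers are the mean and SD of 3. The 5 upper panels are high in 3NC and 5NC and low in OV, the panel of Cst8 lies between 242 and 301 FPKM in all 12 libraries, and Gpx5, Lcn5 and Lcn8 lie at or near the dotted line of 0.

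Compared to 5NC, the pooled reads of Crisp1 were 796-fold lower in the overexpression group, with a counting interval of 366 to 2171 (95%, exact binomial). Such intervals cover counting error only and leave out the spread between libraries. 5NC replicate 2 held 3400 of the 4933 reads of its group, and the pooled fold was 365 without it and 1210 without 5NC replicate 1. With the spread between libraries, the fitted log2 fold change was -9.61 (SE 1.85). Compared to 3NC, the pooled reads were 8.48-fold lower in the knockdown group (interval 7.37 to 9.80), and the fitted log2 fold change was -3.10 (SE 1.17). Knockdown replicate 1 held 209 of the 219 reads of its group, and without it the pooled fold was 121 and the log2 fold change -6.87. The difference between the 2 vector controls was of the opposite kind: the pooled reads in 5NC were 2.75 times those in 3NC, and the log2 fold change, 1.53 (SE 1.04), was 0.42 without 5NC replicate 2. In bulk tissue, fewer cells of a type and less RNA per cell cannot be told apart.

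Spink8 (gene ID 78709, chr9:109812203-109826628) encodes a secreted serine protease inhibitor of the Kazal type. It was at 10.6, 20.4 and 6.53 FPKM in 3NC, 4.49, 71.2 and 32.6 FPKM in 5NC, 5.48, 1.30 and 1.08 FPKM in the knockdown group, and 1.29, 1.56 and 1.47 FPKM in the overexpression group. Its 12 libraries stood in much the same order as those of Crisp1, but it did not fall to 0: the lowest library still had 9 reads. The pooled reads were 23.1-fold lower in the overexpression group than in 5NC (interval 16.4 to 33.6), and 11.7-fold without 5NC replicate 2. They were 4.63-fold lower in the knockdown group than in 3NC (interval 3.54 to 6.14), and 9.99-fold without knockdown replicate 1.

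Rnase9 (gene ID 328401, chr14:51038459-51041903) belongs to the ribonuclease A family, and its product is secreted and binds sperm. Its reads were 20, 42 and 16 in 3NC, 6, 111 and 57 in 5NC, 10, 0 and 2 in the knockdown group, and 0, 0 and 2 in the overexpression group. The highest library was again 5NC replicate 2, at 7.69 FPKM. The pooled reads were 84.3-fold lower in the overexpression group than in 5NC, with a wide interval of 23.0 to 701 since it rests on 2 reads. Leaving out each library in turn gave 39.6-fold, as a lower bound without overexpression replicate 3, 45.0-fold without 5NC replicate 2 and up to 128-fold without 5NC replicate 1. The pooled reads were 6.45-fold lower in the knockdown group than in 3NC (interval 3.49 to 13.0), and 25.3-fold without knockdown replicate 1, which held 10 of the 12 reads.

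Prom2 (gene ID 192212, chr2:127526953-127541417) encodes prominin 2, a membrane protein of epithelial protrusions and thus the one member that is not secreted. Its reads were 60, 62 and 30 in 3NC, 24, 246 and 110 in 5NC, 23, 4 and 5 in the knockdown group, and 0, 2 and 2 in the overexpression group. The pooled reads were 92.0-fold lower in the overexpression group than in 5NC (interval 35.6 to 339), 47.8-fold without 5NC replicate 2 and 59.3-fold without overexpression replicate 1. They were 4.72-fold lower in the knockdown group than in 3NC (interval 3.20 to 7.14), and 11-fold without knockdown replicate 1. Per length it was the lowest of the 5 in 5NC, at 2.21 ± 1.98 FPKM (SD, n = 3).

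Spint3 (gene ID 629747, chr2:164569695-164573456) encodes a protease inhibitor of the Kunitz type. It was at 2.04, 1.94 and 1.55 FPKM in 3NC, 2.39, 7.33 and 4.78 FPKM in 5NC, 1.09, 0.61 and 0.62 FPKM in the knockdown group, and 0.15, 0.62 and 0.39 FPKM in the overexpression group. Its range was the narrowest of the 5, at 44.9-fold from the lowest to the highest CPM. The pooled reads were 11.8-fold lower in the overexpression group than in 5NC (interval 5.47 to 30.1). This was 8.77-fold without 5NC replicate 2, 8.85-fold without overexpression replicate 1 and 17.8-fold without overexpression replicate 2. The pooled reads were 2.32-fold lower in the knockdown group than in 3NC (interval 1.23 to 4.57).

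These 5 genes were the members whose CPM was lower in all 3 libraries, with no overlap, both in the overexpression group against 5NC and in the knockdown group against 3NC. Among all 16388 tested genes, 10% were lower without overlap in the first comparison and 6.36% in the second. The differences of these genes were among the values that chose the set, so nothing is read from the counts. In 5NC against 3NC, Spint3 was higher in all 3 libraries without overlap, as were 6.80% of all genes, and the other 4 overlapped.

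The ratios of Rnase9, Spink8 and Prom2 to Crisp1 were steadier than the levels of these genes, and for Spint3 this turned on 1 library. In the 7 libraries with at least 100 Crisp1 reads, the CPM of Crisp1 spanned 24.3-fold, whereas Rnase9 had 3.26 to 4.78 reads per 100 Crisp1 reads, a 1.47-fold range. The counting intervals of Rnase9 in those 7 libraries all held the values from 3.12 to 3.94. The level of Rnase9 itself spanned 20.9-fold there. Spink8 had 14.1 to 24.7 reads per 100 Crisp1 reads and Prom2 had 6.26 to 15.2, ranges of 1.75-fold and 2.43-fold, while their levels spanned 15.4-fold and 11.9-fold. Spint3 had 1.21 to 10.1 reads per 100, and this 8.35-fold range was wider than the 6.68-fold range of its level. Without 5NC replicate 2 the levels of Rnase9, Spink8 and Prom2 spanned 10.9-fold, 7.06-fold and 5.41-fold, still wider than their ratios (1.26-fold, 1.75-fold and 2.43-fold). For Spint3, the 10.1 was 5NC replicate 1, with 16 Spint3 and 158 Crisp1 reads, and without that library the ratio ran from 1.21 to 3.35, a 2.76-fold range, narrower than that of the level. Cst8 and Rnase10 showed no such steadiness: Cst8 had 56.7 to 1390 reads per 100 Crisp1 reads and Rnase10 0.0294 to 67.1, and without 5NC replicate 2 they had 137 to 1390 and 4.24 to 67.1, ranges of 10.2-fold and 15.8-fold. The other 5 libraries, knockdown replicates 2 and 3 and the overexpression group, had under 10 Crisp1 reads each, too few for a ratio. Over the 12 libraries, Pearson correlations of log2 CPM among Crisp1, Rnase9, Spink8, Spint3 and Prom2 were 0.90 to 0.98 and Spearman correlations 0.85 to 0.96. The points share libraries, and they fall into a low cluster and a high range, so these values describe the 12 libraries and carry no p. The ratios and their intervals are a description as well, since the differences of these genes between the same libraries brought them up.

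**Figure D2:**
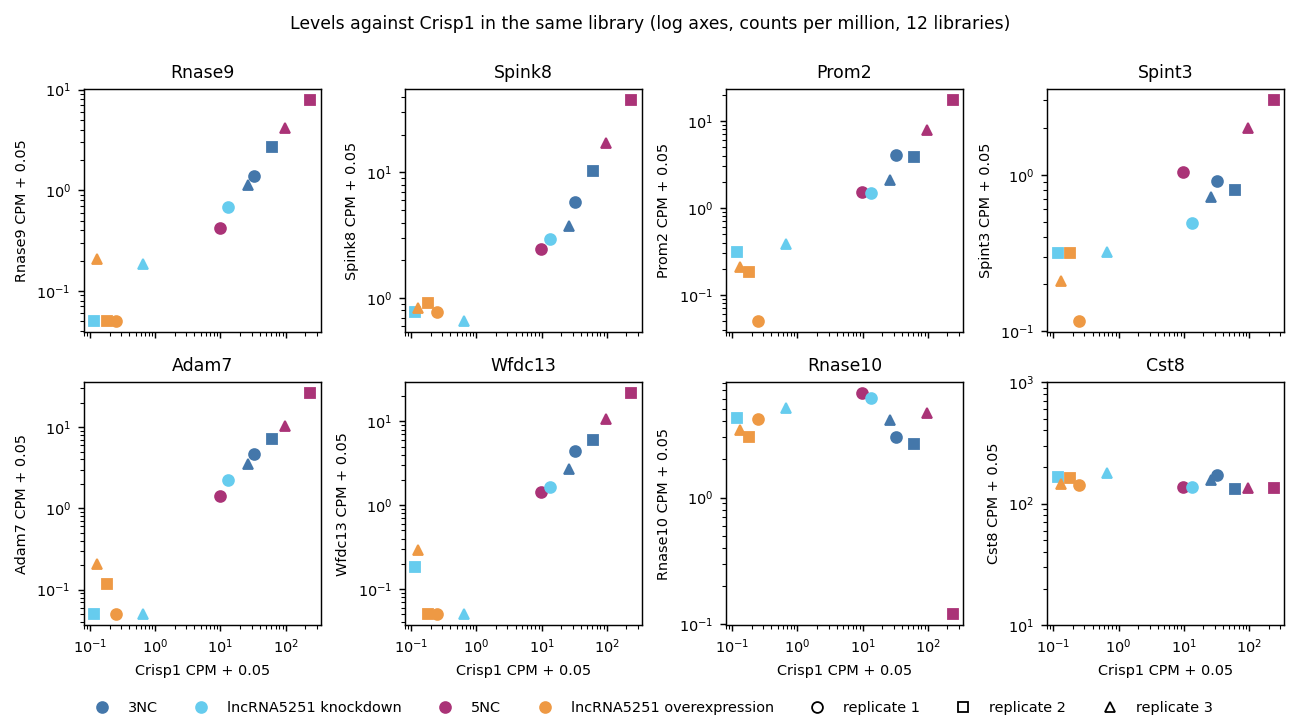
CPM of 8 genes against the CPM of Crisp1 in the same library, on log axes with 0.05 added, with color for the group and shape for the replicate number. Rnase9, Spink8, Prom2, Adam7 and Wfdc13 rise along a line with Crisp1 in the 7 libraries that have at least 100 Crisp1 reads, while Cst8 is level across all 12 and Rnase10 has 1 low point, 5NC replicate 2.

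Cst8 (gene ID 13012, chr2:148798839-148805596) encodes a cystatin made in the initial segment of the epididymis and also in testis germ cells. Its level was 242 to 301 FPKM in all 12 libraries, a range of 1.35-fold in CPM. It was the member with the highest mean FPKM and the only one at more than 200 FPKM in every library. In CPM it was higher in all 3 overexpression libraries (141.5, 162.0 and 143.7) than in the 5NC libraries (137.3, 135.6 and 134.5), as were 11.3% of all tested genes. The difference was small, with a log2 fold change of 0.13 (SE 0.11). In the knockdown group against 3NC the groups overlapped and the log2 fold change was 0.06 (SE 0.11).

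Rnase10 (gene ID 75019, chr14:51007751-51010761) encodes a ribonuclease A relative of the initial segment that takes part in sperm maturation. Its reads were 45, 42 and 60 in 3NC, 106, 1 and 64 in 5NC, 95, 63 and 75 in the knockdown group, and 62, 44 and 42 in the overexpression group. All libraries but one had at least 42 reads, and 5NC replicate 2, the library with the most Crisp1, had 1. In the knockdown group all 3 libraries (4.19 to 6.01 CPM) were above all 3 of 3NC (2.61 to 4.05 CPM), as was the case for 4.95% of all tested genes, with a log2 fold change of 0.66 (SE 0.75). In the overexpression group against 5NC the log2 fold change was -0.13 (SE 0.76), and it was 0.57 without 5NC replicate 1.

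Gpx5 (gene ID 14780, chr13:21286429-21292727) encodes the secreted glutathione peroxidase of the caput, one of the most abundant products of that segment. It had 0 to 2 reads per library and 10 reads in all. Lcn5 (gene ID 13863, chr2:25657932-25662230), a lipocalin of the caput that carries retinoids, had 2 reads in 3NC replicate 1 and none in the other 11 libraries. Lcn8 (gene ID 78076, chr2:25653118-25656217), a lipocalin of the initial segment, had none in any library. A count of 0 allows a level of up to 3 reads, which is 0.186 to 0.238 CPM depending on the library. No direction can be read for these 3 genes at this depth.

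By segment, the members did not vary as a block. The segments were assigned from general knowledge of where each gene is expressed, not from the files, and the shares below depend on that assignment. Genes assigned to the initial segment (Cst8, Rnase10 and Lcn8) made up 84.9% of the summed FPKM of the 10 members in 3NC, 69.2% in 5NC, 97.3% in the knockdown group and 99.2% in the overexpression group, as group means. Nearly all of this was Cst8, whose level was steady while the rest of the sum changed, and Lcn8 had no reads. Cst8 is also made in testis germ cells, so these shares cannot be read as an amount of epididymal RNA. Without Cst8 the share was 5.29%, 8.58%, 45.2% and 53.9% in the same order. The value for 5NC rests on its replicate 1, at 23.2% against 0.0177% and 2.51% in replicates 2 and 3. It was 1.26% without replicate 1, which turns its order with 3NC, and 12.9% without replicate 2. The caput genes Gpx5 and Lcn5 stayed at or below 0.0675% of the sum in each library. Crisp1, the member of the distal segments, ranged from 0.0176% of the sum in knockdown replicate 2 to 36.3% in 5NC replicate 2. Of the caput proteins and the distal one, both abundant in their own segments, only the distal one reached more than 2 reads in any of these libraries. Rnase9, Spink8, Spint3 and Prom2 were assigned to no segment.

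Beyond the members, a list of 36 other epididymal genes was examined, of which 17 passed the filter on low counts. The contrast between the distal member and the caput members did not extend to all of them. Of the 15 listed under the initial segment or caput, 4 passed the filter, and Adam7 among them reached 371 reads in 5NC replicate 2. Crisp4, a relative of Crisp1, and Spag11a, a beta-defensin relative, were too low for a test, but both were also highest in that library, with 18 reads each against 0 to 6 in the other 11. None of the 17 was called by edgeR's quasi-likelihood test (adjusted p under 0.05) in the knockdown group against 3NC, where 0% of all tested genes were called (924 had an unadjusted p under 0.05, and DESeq2 called 16). None was called in the overexpression group against 5NC either, where 0.311% of all genes were, nor in 5NC against 3NC (0.128% of all genes), nor for the difference between the knockdown and overexpression effects (0.0244% of all genes). At an unadjusted p under 0.05 there were 6 lower and 1 higher of 17 in the knockdown comparison, 10 lower and 1 higher in the overexpression comparison, and 5 higher in 5NC against 3NC. For the difference of the effects, 6 passed the unadjusted threshold, all higher. Among all tested genes, 5.64%, 11.9%, 10.8% and 4.63% passed it in these comparisons, in either direction. These shares are no like-for-like background: 7 of the 17 (Adam7, Bsph2, Rnase12, Spink10, Wfdc13, Wfdc15b and Wfdc16) had under 10 reads in every overexpression library, against 1.56% of all tested genes, and 4 (Bsph2, Rnase12, Spink10 and Wfdc15b) in every knockdown library, against 0.781%. Such genes passed the filter through the other groups, so a lower value was built in for them, the list was chosen with earlier results known, and the counts and medians over the 17 support nothing. DESeq2 called 0 of 17, 8 of 17, 1 of 13 and 0 of 16 genes to which it gave an adjusted p, in the same order, against 0.0985%, 2.02%, 1.14% and 0.264% of all such genes. The 8 genes were Ces5a and the 7 with under 10 reads in every overexpression library, for which a lower value was built in, so the 8 support nothing either. The 1 gene was Aqp9. In the overexpression comparison, limma on log2(FPKM + 0.1) called 2 of the 17 and 0.5% of all genes. Without 5NC replicate 1, edgeR called 4 there, namely Ces5a (adjusted p 0.0173), Wfdc16 (0.0301), Spink10 (0.0317) and Wfdc13 (0.0491), all lower, among 49 called of all 16733 genes tested in that fit (0.293%). Wfdc16, Spink10 and Wfdc13 are among the 7 genes with a lower value built in. The library left out was the lowest of 5NC for each of the 4, so these calls support nothing either. The median log2 fold change of the 17 was -0.11 in the knockdown comparison, -1.14 in the overexpression comparison and 1.23 in 5NC against 3NC, against -0.02, -0.01 and -0.02 for all tested genes. The overexpression and 5NC against 3NC comparisons share the 5NC libraries, and the knockdown and 5NC against 3NC comparisons share those of 3NC.

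The other genes fell into those that varied with Crisp1 and those that did not. Adam7, a membrane protein of the metalloprotease family that is transferred to sperm, had 69, 113 and 52 reads in 3NC, 22, 371 and 143 in 5NC, 35, 0 and 0 in the knockdown group, and 0, 1 and 2 in the overexpression group. Between the overexpression group and 5NC it differed by -7.31 on the log2 scale (SE 1.66, adjusted p 0.105 by edgeR). Per 100 Crisp1 reads it had 10.4 to 16.7 in the 7 libraries with at least 100 of them. Ces5a, a secreted carboxylesterase, had the smallest p of the list, with a log2 fold change of -3.56 (SE 0.70, adjusted p 0.0705 by edgeR). Its level was 1.54 to 14.2 FPKM in 5NC and 0.57 to 0.87 FPKM in the overexpression group. In CPM, 10 of the 17 were lower without overlap in the overexpression group and 6 of 17 in the knockdown group, beside the 10% and 6.36% of all genes. The 10 include all 7 genes that had under 10 reads in every overexpression library, for which a lower value was built in. These counts thus support nothing. In contrast Cst12, a cystatin, at 117 to 168 FPKM, and Aqp9, a water and glycerol channel, at 25.4 to 40.2 FPKM, were measured in every library, although Aqp9 was 0.31 lower on the log2 scale in the overexpression group than in 5NC (SE 0.09, adjusted p 0.175 by edgeR) and DESeq2 called it higher in 5NC than in 3NC, by 0.36 on the log2 scale (adjusted p 0.0234; 0.191 by edgeR). Lcn6, Lcn10 and Spink12 had no read in any.

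**Figure D3:**
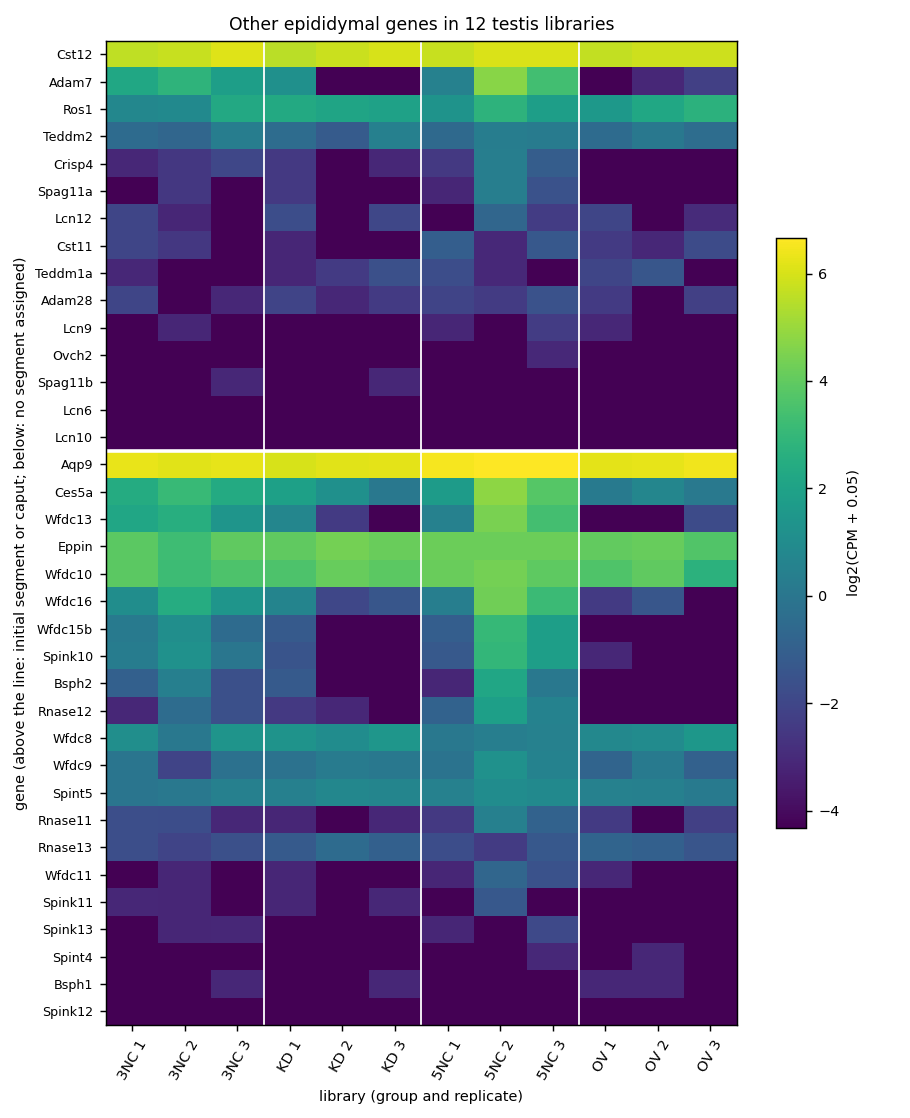
Levels of the 36 other epididymal genes in 12 libraries, as log2(CPM + 0.05), with genes in rows and libraries in columns (knockdown KD, overexpression OV). Adam7, Wfdc13, Wfdc15b, Wfdc16, Spink10, Bsph2 and Rnase12 are brightest in 5NC replicate 2 and dark in the OV columns, Ces5a is brightest there and of middle brightness in the OV columns (1.03 to 1.60 CPM), while Cst12, Aqp9, Eppin and Wfdc10 are bright throughout.

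Genes beside the members in the genome did not all share their pattern. Spint3 lies on chromosome 2 in a cluster of whey acidic protein and Kunitz inhibitor genes. Of its neighbours, Wfdc13 (chr2:164685107-164687706) was at 1.48 to 23.9 FPKM in 5NC and 0 to 0.25 FPKM in the overexpression group, with 154-fold fewer pooled reads (interval 52.5 to 751), or 80.4-fold without 5NC replicate 2 and 99.5-fold without overexpression replicate 1, with a like value without replicate 2. Wfdc16 (chr2:164634701-164638808) had 58.5-fold fewer (interval 28.2 to 147), or 29.8-fold without 5NC replicate 2 and 133-fold without overexpression replicate 2. Wfdc15b (chr2:164214454-164221663) had 175 reads in 5NC and none in the overexpression group, which is at least 56.5-fold lower when 3 reads over the group are taken as the floor (at least 27.1-fold without 5NC replicate 2 and at least 85.1-fold without 5NC replicate 1). Between these genes lies Eppin (chr2:164588343-164593571), the gene of a sperm-coating inhibitor made in the testis as well. It was at 16.8 to 32.4 FPKM in all 12 libraries, with a log2 fold change of -0.23 (SE 0.19) against 5NC. Wfdc10 (21.1 to 66.5 FPKM) and Spint5 (2.99 to 6.66 FPKM) of the same cluster were also measured in every library. Wfdc10 overlaps Wfdc9 in the annotation, so their reads may be mixed.

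The ribonuclease cluster on chromosome 14 was divided in the same way. Rnase9 and its neighbour Rnase12 (chr14:51056698-51057242) were highest in 5NC replicate 2, with 111 and 52 reads, and Rnase12 had none in the overexpression group against 80 in 5NC, at least 25.8-fold lower with the same floor (at least 13.3-fold without 5NC replicate 2). Rnase11 was too low for a test, at 0 to 19 reads, and was also highest in that library. Rnase10, on the other side of Rnase9, was lowest there, with 1 read. Rnase4, a ribonuclease of many tissues, was at 3.66 FPKM in that library, within the 2.66 to 11.7 FPKM of all 12.

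Several relatives of the members that are known from the testis were abundant in every library. Crisp2, the sperm-tail and acrosome relative of Crisp1 on the same chromosome, was at 1537 to 2239 FPKM, and its log2 fold change was 0.03 (SE 0.15) in the overexpression group against 5NC and -0.19 (SE 0.15) in the knockdown group against 3NC. Gpx4, the selenium peroxidase of sperm, was at 922 to 1253 FPKM beside the 10 reads of Gpx5. Spink2, an acrosomal inhibitor, was at 520 to 711 FPKM, and Prom1 at 23.1 to 33.3 FPKM. Not all relatives were even: Gpx3, a secreted glutathione peroxidase, was highest in 5NC replicate 2 at 22.1 FPKM and lay between 6.51 and 8.72 FPKM in the overexpression group (log2 fold change -0.91, SE 0.52, adjusted p 0.529 by edgeR). Lcn2, a lipocalin of innate immunity, spanned 6.24-fold in CPM and was highest in knockdown replicate 1. Spint1 was low, at 0.68 to 1.81 FPKM. Of the 12 relatives tested, Cst9 changed, a cystatin gene (chr2:148835147-148838737) in the cluster that holds Cst8. It was at 73.5, 77.4 and 115 FPKM in 3NC, 14.6, 22.1 and 19.3 FPKM in 5NC, 136, 111 and 120 FPKM in the knockdown group, and 42.3, 70.2 and 99.2 FPKM in the overexpression group. All 3 libraries of 5NC were below all the others. Cst9 was higher in the overexpression group than in 5NC (log2 fold change 1.96, SE 0.29, adjusted p 0.0206 by edgeR) and lower in 5NC than in 3NC (log2 fold change -2.29, SE 0.29, adjusted p 0.0118 by edgeR), both of which rest on the low 5NC libraries. Its pattern was not that of Cst8, nor that of Crisp1.

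**Figure D4:**
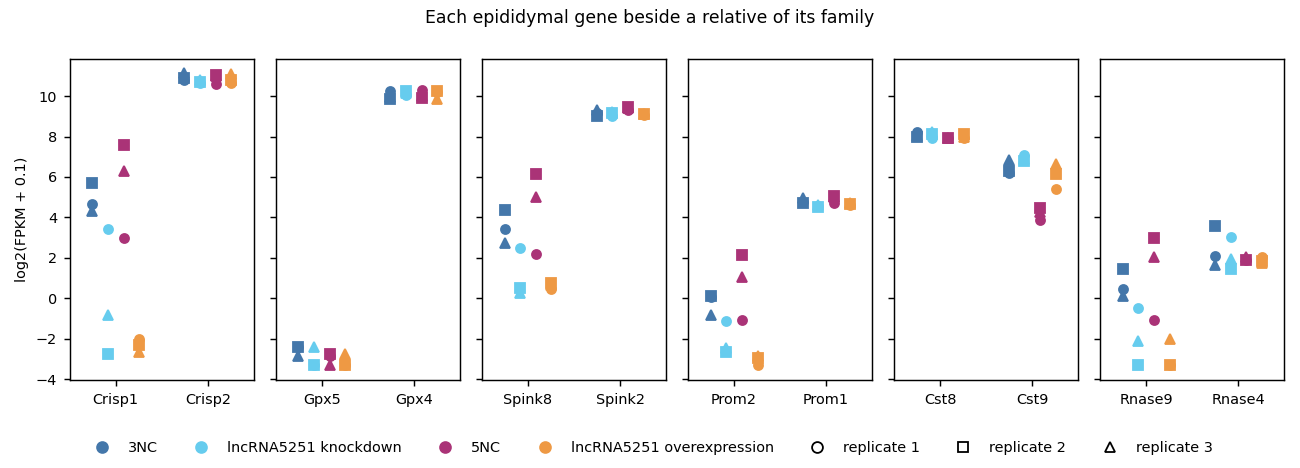
FPKM of 6 members, each beside a relative of its gene family, as log2(FPKM + 0.1) in 12 libraries, with color for the group and shape for the replicate number. Crisp2, Gpx4, Spink2 and Prom1 lie in narrow bands (1537 to 2239, 922 to 1253, 520 to 711 and 23.1 to 33.3 FPKM), and Cst9 is low in the 3 libraries of 5NC.

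The 10 genes most like the members, by the Pearson correlation of log2 CPM with the mean of the members over 12 libraries, were Defb28 (0.986), Adam7 (0.977), Wfdc13 (0.974), Serpina16 (0.973), Ly6f (0.972), Wfdc15b (0.969), Npy (0.967), Defb22 (0.965), Spink10 (0.959) and Wfdc16 (0.958). Defb28 and Defb22 are beta-defensins, antimicrobial peptides with many epididymal forms, Serpina16 belongs to the serpin family, and Npy encodes neuropeptide Y. All 10 were highest in 5NC replicate 2. Mean FPKM of Defb28 was 7.46 in 3NC, 19.3 in 5NC, 1.07 in the knockdown group and 0.0833 in the overexpression group. With Spearman correlation 4 of the 10 stayed among the first 10, and 7 did when 5NC replicate 2 was left out. Since the measure was chosen on these libraries, it is a description only.

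Markers of other cell types that could lie beside the testis were set beside these values, and their part in the differences was not tested. Markers of the efferent ducts and rete testis summed to 16.8 to 21.4 CPM in 3NC, 19.7 to 26.1 in 5NC, 16.8 to 19.0 in the knockdown group and 17.5 to 25.2 in the overexpression group. The knockdown group overlapped 3NC but not 5NC. The overexpression group overlapped 5NC through its replicate 3 only, at 25.2 CPM against 17.5 and 17.6 in replicates 1 and 2. One of its 6 genes, Pax8, a transcription factor of that epithelium, followed the members in part: it had 5, 9 and 4 reads in 3NC, 1, 24 and 18 in 5NC, 3, 8 and 4 in the knockdown group, and 0, 1 and 3 in the overexpression group. The 3 markers of basal cells summed to 2.85 to 3.11 CPM in 3NC, 3.31 to 3.79 in 5NC, 2.19 to 3.03 in the knockdown group and 1.998 to 3.02 in the overexpression group, most of it Trp63. The keratin Krt5 had 9 reads in all, 0 to 3 in each control library and none in the knockdown and overexpression groups, and Krt14 had 8, of which 1 was in overexpression replicate 3 and the rest in the controls. Markers of clear cells summed to 8.95 to 11.9 CPM in 3NC, 8.09 to 9.71 in 5NC, 11.1 to 14.4 in the knockdown group and 10.3 to 11.6 in the overexpression group. Most of that sum was Atp6v1b1, a proton pump subunit, with 1764 reads over the 12 libraries. Atp6v1g3, another subunit on the list, had 12 reads in all, 0 to 4 in each control library and none in the knockdown and overexpression groups. The remaining clear cell markers did not share this: Slc4a9 had 7, 4 and 6 reads in 5NC and 7, 10 and 2 in the overexpression group, and Atp6v0d2 and Foxi1 had reads in every group. Genes of epithelium in general summed to 51.6 to 55.0 CPM in 3NC, 52.0 to 62.3 in 5NC, 44.5 to 52.9 in the knockdown group and 49.7 to 52.8 in the overexpression group. Their 6 tested genes all had a negative log2 fold change in the overexpression comparison (median -0.21) and 5 of 6 in the knockdown comparison (median -0.19), and none was called. Cdh1, the gene of E-cadherin, had 24, 61 and 34 reads in 5NC and 25, 17 and 15 in the overexpression group, with a log2 fold change of -1.04 (SE 0.43, adjusted p 0.369 by edgeR). Markers of the vas deferens and seminal vesicle summed to 2.11 to 4.93 CPM, highest in 5NC replicate 2, and 4 of the 10 had under 10 reads in all. One of them, Spinkl, had 15 reads in 5NC replicate 2 and 1 to 6 in each other library. None of the markers of these 5 cell groups was at 0 in every library, and none of those that could be tested was called in any comparison. Of the 5 blood genes, Hbb-bs and Hbb-bt were called higher in the overexpression group than in 5NC (log2 fold changes 7.89 and 5.56, adjusted p 0.000605 and 0.0492 by edgeR) and lower in 5NC than in 3NC, the opposite direction to that of Crisp1. Both had at most 1.03 estimated reads in each 5NC library, against 66.9 to 156 reads of Hbb-bs and 10.4 to 28.3 of Hbb-bt in the overexpression group. The summed blood genes, mostly Hba-a1 and Alas2, were at 48.7 to 56.5 CPM in 5NC and 52.0 to 102 CPM in the overexpression group. Adipose markers summed to 24.1 to 46.9 CPM in 3NC and 19.3 to 40.0 in the knockdown group, and their 5 tested genes all had a negative log2 fold change there (median -0.73), while in the overexpression comparison 1 of 5 did (median 0.25). Smooth muscle markers summed to 63.5 to 98.2 CPM in 3NC, 82.0 to 108 in 5NC, 74.5 to 80.5 in the knockdown group and 76.9 to 86.9 in the overexpression group. Of the 6 testis somatic genes, Cyp17a1 and Star, both of steroid synthesis in Leydig cells, had log2 fold changes of -1.17 (SE 0.35) and -0.97 (SE 0.28) in the knockdown comparison (adjusted p 0.764 for each by edgeR). No gene of these 3 lists was called in any comparison. Leaving out both libraries with high Ptprc moved the log2 fold change of Crisp1 in the knockdown comparison to -6.42, since one of them is knockdown replicate 1. The deepest library, 5NC replicate 1, had 158 Crisp1 reads and the shallowest, overexpression replicate 3, had 1.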

How the data were processed

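Testis RNA of 12 F1 mouse libraries in 4 groups of 3 was analysed; the titles gave each group and replicate number. Per the study's methods, messenger RNA was enriched with oligo(dT) beads and the authors mapped reads to genes with SOAPaligner; the labels name build mm10. The deposited estimated counts per gene are not scaled, and 17.3% of genes hold a fraction; the rule for sharing reads among genes is not stated in the methods or labels. The deposited FPKM values were computed by the authors, whose methods describe them as RPKM. A further 18 per-sample columns of other groups were not used.

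Estimated counts were rounded. After filterByExpr, 16388 of 20788 genes were tested with edgeR 4.0.16 in R 4.3.3 (TMM scaling, quasi-likelihood test, Benjamini-Hochberg adjustment over all tested genes, threshold 0.05), with all 12 libraries in 1 fit. The study's own test has no term for the spread between libraries and was not used. CPM are scaled by TMM, and log2 CPM used a prior count of 2. SE is the log2 fold change divided by the square root of F. Pooled ratios divide reads summed over a group by its summed effective library sizes, with 95% exact binomial intervals. Coordinates, symbols and promoters came from RefSeq (GRCm38.p6, the same build as mm10), and 9 of 10 promoters matched (not Spink8). Depth was 12719699 to 15771655 estimated reads, and a low read number gives a wide interval. The scripts were tested on simulated data.

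The members and the gene lists were chosen with earlier results of these data known. Genes named were the 10 members, the 10 tested genes whose log2 CPM correlated best with the members' mean, list genes that passed a test, the most abundant list genes and the members' relatives. Other list genes named for their place beside a member, and Ces5a, Crisp4, Spag11a, Atp6v1g3, Slc4a9, Atp6v0d2, Foxi1, Spinkl, Cdh1, Krt5, Krt14, Pax8, Ptprc, Cyp17a1, Star, Gpx3, Lcn2 and Spint1, were chosen after their values were seen. Alternatives were DESeq2 1.42.0, limma 3.58.1 on log2(FPKM + 0.1) and on log2(FPKM + 1), other scaling and filtering, a replicate block, fits of 6 libraries and each library left out. Leaving out both libraries with high Ptprc was chosen after the data were seen.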

Additional observations from a re-analysis of the deposited data

How the results depend on the processing

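The 5 members low in the overexpression and knockdown groups kept their sign under each alternative run. Their groups did not overlap in these 2 comparisons, so leaving out a library could hardly turn the sign. These differences also brought the genes up, so the kept sign supports nothing. Of 285 member fold changes under alternatives, 266 moved by less than 1 SD and 274 kept their sign; the other 11 were of Rnase10 or Cst8. For the other epididymal genes, DESeq2 called 8 in the overexpression comparison and 1 in 5NC against 3NC, limma on log2(FPKM + 0.1) called 2 in the former, and leaving out each library gave 0 to 4. Over all genes, called genes in the overexpression comparison (51) numbered 107 with only its 6 libraries, 328 by DESeq2, 82 by limma on log2(FPKM + 0.1) and 9 to 49 with a library left out. In the knockdown comparison (0) they numbered 16 by DESeq2, 1 by limma on log2(FPKM + 1) and 0 to 12. In 5NC against 3NC (21) they numbered 7 with only its 6 libraries, 171 by DESeq2, 45 without both libraries with high Ptprc and 3 to 35. For the difference of the effects (4) they numbered 42, 10 by limma on log2(FPKM + 1), and 2 to 10. Pooled folds, with each library left out after the data were seen, moved most for Crisp1 in the knockdown comparison (8.48 to 121 without knockdown replicate 1). The causes were not tested. The share of initial segment genes in 3NC was 75.0% by CPM, and without Cst8 the shares were 5.29%, 8.58%, 45.2% and 53.9% in 3NC, 5NC, knockdown and overexpression. Leaving out each library in turn, also chosen after the data were seen, gave 1.26% (without 5NC replicate 1) to 12.9% (without 5NC replicate 2) for the 8.58%, and with Cst8 82.4% to 89.2%, 56.8% to 80.5%, 96.2% to 99.2% and 99.2% to 99.3%. At 0 to 2 reads per library, Gpx5, Lcn5 and Lcn8 could not be compared.

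With the replicate number as a replicate block, 21 genes were called in the overexpression comparison, 5 in 5NC against 3NC, 2 for the difference and 0 in the knockdown comparison, and no other epididymal gene was called. The labels do not say that a number marks a shared animal or batch, and same-numbered libraries did not deviate together: correlations were -0.52, -0.64 and 0.39 for knockdown with 3NC, 0.19, -0.12 and 0.15 for overexpression with 5NC, and 0.31, 0.18 and -0.0067 for 5NC with 3NC.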
